A study of Mus musculus with 9 samples.

Results

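The 10 genes described here mark the inhibitory interneurons of the cerebellum or carry out their GABA and glycine transmission, and they were followed in RNA-seq counts of whole cerebellar tissue. They were chosen by name, through their Ensembl identifiers, and all 10 of 10 were found among the 37816 genes of the count table. They comprise the enzymes of GABA synthesis (Gad1, Gad2), the vesicular and plasma membrane transporters (Slc32a1, Slc6a5), markers of interneurons of the cerebellar cortex (Pvalb, Kit, Sorcs3, Tfap2b, Lypd6) and a receptor of Golgi cells (Grm2). The rule uses no expression value.

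Inhibition in the cerebellar cortex comes from Purkinje cells, from basket and stellate cells of the molecular layer, and from Golgi cells of the granular layer. Glutamate decarboxylases make GABA, the vesicular transporter Slc32a1 loads GABA and glycine into synaptic vesicles, and the plasma membrane transporter Slc6a5 supplies glycine to the terminals of glycinergic neurons, which in the cortex are chiefly Golgi cells. Basket and stellate cells hold the calcium-binding protein parvalbumin and the receptor tyrosine kinase Kit, whose ligand is made by Purkinje cells.

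The series holds 9 cerebellar libraries from mice of 18 months on a C57BL/6 background, a model of spinocerebellar ataxia type 3 (SCA3). The 3 control mice (15Q) bear human ATXN3 with 15 CAG repeats on a YAC transgene, the 3 diseased mice (84Q) bear human ATXN3 with an expanded tract of 84 repeats, and 3 further 84Q mice received insulin-like growth factor 1 (84Q+IGF-1). IGF-1 was injected into the peritoneum every week at 50 mg/kg from 9 months of age until harvest. The 15Q and 84Q mice are labelled untreated, while the treatment protocol names PBS as the alternative injection. All 9 mice carry a human transgene beside their own Atxn3 alleles, so no library represents a mouse without one. The 2 lines came from different sources, so a difference between 15Q and 84Q mice and a difference between the lines cannot be told apart.

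Library totals ran from 17482654 to 58269196 counts, and 3 counts corresponded to 0.0515 to 0.172 CPM, the counts scaled to library size. This floor used the totals as they stand. The CPM of genes and gene sets used totals multiplied by the normalization factors of edgeR (TMM). Mouse Atxn3, the endogenous gene, stood at 29.0 ± 1.08, 27.0 ± 1.82 and 27.0 ± 1.31 CPM (SD, n = 3) in 15Q, 84Q and then 84Q+IGF-1 mice, which does not check the human transgene. Granule cell markers summed to 5551 to 6459 CPM and Purkinje cell markers to 7095 to 7978 CPM in every library, and forebrain markers to at most 10.1 CPM. Granule cell genes had 0 of 10 called, and forebrain genes 0 of 3 tested, in any comparison by edgeR. Without the fold limit, 1 of the 10 granule cell genes passed in 84Q+IGF-1 mice and over both 84Q groups against 15Q mice. A set of 10 choroid plexus genes stood apart: it summed to 504 to 1056 CPM in 15Q replicates 1 and 3 and 84Q replicate 2, and to 17.8 to 51.0 CPM in the other 6 libraries. Of these 10 genes, Calml4 alone was called, lower over both 84Q groups. The members' counts are therefore also given without the 3 libraries high in choroid plexus genes. The p-values measure the spread between these mice only.

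Every member was well above the counting floor, and counts ranged from 434 for Sorcs3 in 84Q replicate 3 to 23556 for Gad1 in 15Q replicate 3. All 10 passed the filter on low counts, through which 19353 genes were tested. Levels per exon length, in TPM, put Pvalb first with a mean of 791 TPM over the 9 libraries (701 to 897 TPM). Gad1 followed at 237 TPM and Gad2 at 131 TPM. Slc32a1 stood at 128 TPM, and its place differed by group. In the 15Q libraries Gad2 (130 to 137 TPM) lay above Slc32a1 (100 to 125 TPM) without overlap, whereas the ranges overlapped in 84Q and in 84Q+IGF-1 libraries. Kit stood at 106 TPM over the 9 libraries. In 15Q mice Kit and Slc32a1 had like levels, with means of 115 and 114 TPM and overlapping ranges, and in 84Q mice Kit lay below Slc32a1 in all 3 libraries, with means of 96.9 and 139 TPM. Tfap2b, which encodes the transcription factor AP-2 beta of the GABAergic lineage, reached 49.4 TPM. The lowest levels were those of Lypd6 (28.8 TPM), Slc6a5 (25.3 TPM), Grm2 (19.7 TPM) and Sorcs3 (14.2 TPM). Lypd6 exceeded Slc6a5 in 8 of 9 libraries, as did Slc6a5 relative to Grm2, while the remaining steps in the order, those from Gad2 to Slc32a1 and from Slc32a1 to Kit aside, held in all 9 libraries. The plot of TPM by gene shows this order.

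**Figure D1:**
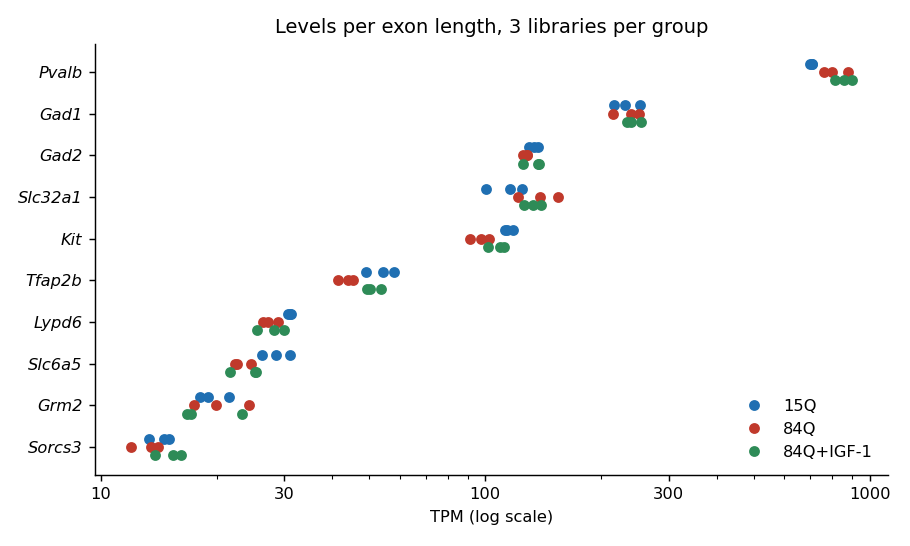
Level of each of the 10 genes in TPM (horizontal axis, log scale), with 1 point per library coloured by group (3 libraries each). The genes are ordered by their mean over the 9 libraries, from Pvalb at 791 TPM to Sorcs3 at 14.2 TPM, and the ranges of Gad2 and Slc32a1 overlap.

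Because 4 members had an adjusted p under 0.1 in some comparison (Pvalb, Slc32a1, Slc6a5 and Tfap2b) and because Tfap2b encodes an AP-2 factor, the 250 bases before the RefSeq start of these 4 genes are shown with the AP-2 motif GCCNNNGGC in capitals. The build is GRCm38.p6, and each sequence reads 5′ to 3′ on the strand of its gene, at the first start that RefSeq lists.
Pvalb, chr15:78206401-78206650, minus strand: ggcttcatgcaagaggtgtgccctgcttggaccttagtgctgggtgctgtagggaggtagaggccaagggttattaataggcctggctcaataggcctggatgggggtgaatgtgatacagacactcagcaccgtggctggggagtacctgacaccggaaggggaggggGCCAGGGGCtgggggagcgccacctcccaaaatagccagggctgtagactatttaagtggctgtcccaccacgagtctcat
Slc32a1, chr2:158610508-158610757, plus strand: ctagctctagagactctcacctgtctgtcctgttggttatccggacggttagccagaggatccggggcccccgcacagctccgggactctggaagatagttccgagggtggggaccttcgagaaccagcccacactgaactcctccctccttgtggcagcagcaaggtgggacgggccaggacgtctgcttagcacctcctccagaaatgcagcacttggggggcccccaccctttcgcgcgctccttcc
Slc6a5, chr7:49910049-49910298, plus strand: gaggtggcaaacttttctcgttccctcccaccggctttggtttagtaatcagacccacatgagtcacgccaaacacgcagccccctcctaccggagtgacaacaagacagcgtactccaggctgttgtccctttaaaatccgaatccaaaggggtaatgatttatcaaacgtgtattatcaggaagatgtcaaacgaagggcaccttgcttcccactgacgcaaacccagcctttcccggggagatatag
Tfap2b, chr1:19211804-19212053, plus strand: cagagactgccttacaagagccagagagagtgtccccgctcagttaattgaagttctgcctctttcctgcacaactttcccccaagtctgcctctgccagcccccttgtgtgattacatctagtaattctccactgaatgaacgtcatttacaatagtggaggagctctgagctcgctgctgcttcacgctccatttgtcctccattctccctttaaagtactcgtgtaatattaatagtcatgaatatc

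The motif, which reads alike on both strands, occurred once in the window of Pvalb, 81 bases before the start, and not in the windows of Slc32a1, Slc6a5 or Tfap2b. Among all 10 members it was present in 4 (Gad2, Pvalb, Kit and Grm2), against 13.6% of 27025 promoters of the same length, whose median GC content was 52%. Those 4 windows have a GC content of 58.4% to 71.2%. The E-box CANNTG, searched on both strands, lay in the windows of Slc32a1, Slc6a5 and Tfap2b but not of Pvalb, and in 66.0% of all promoters. A TATA box (TATAAA, both strands) lay in the window of Gad1 alone of the 10, against 13.0% of all promoters. These matches describe the letters of the windows and not the binding of any factor.

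Expanded ataxin-3 was first compared with the control transgene, to see whether the inhibitory interneuron genes differed in diseased cerebellum. A gene was called at a Benjamini-Hochberg adjusted p under 0.1 in edgeR and a fold change of at least 1.5. None of the 10 members was called in 84Q against 15Q, where 2.14% of all genes tested were, and DESeq2 also called 0 of 10. Without the fold threshold 2 of 10 had an adjusted p under 0.1, Pvalb on the higher side and Tfap2b on the lower side, against 4.80% of all genes. An unadjusted p under 0.05 was reached by 5 of 10, against 19.4% of all genes. The 84Q and 15Q libraries did not overlap in CPM for 5 members, namely Pvalb (higher) and Slc6a5, Kit, Tfap2b and Lypd6 (lower), against 25.4% of all genes (11.9% on the higher side). The median log2 fold change was -0.05 over the members and -0.00 over all genes. Differences were small, and the 95% interval of every member lay within a 1.5-fold change in either direction. In bulk tissue, fewer cells of a type and less RNA per cell cannot be told apart.

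In 84Q+IGF-1 against 15Q, 0 of 10 members were called by edgeR or by DESeq2, against 2.25% of all genes in edgeR. Pvalb alone had an adjusted p under 0.1 without the fold threshold, against 3.67% of all genes, and 3 of 10 had an unadjusted p under 0.05, against 17.7% of all genes. Groups did not overlap for Pvalb and Slc32a1 (higher) and Lypd6 (lower), against 24.7% of all genes (11.8% on the higher side). The median log2 fold change was 0.00 over the members and -0.01 over all genes. This comparison shares its 3 control libraries with the one above, so the comparisons are not independent of each other.

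Against 84Q mice, the mice given IGF-1 showed 0 of 10 members called by edgeR and 0 by DESeq2, where edgeR called 0% of all genes, with or without the fold threshold, and DESeq2 called 6 genes. An unadjusted p under 0.05 was reached by 905 genes in edgeR (4.68%) and by 1 member, Tfap2b. Kit and Tfap2b were higher in all 3 libraries of 84Q+IGF-1 than in any 84Q library, against 3.98% of all genes separated on the higher side and 8.48% separated on either side. The median log2 fold change was 0.04 over the members and -0.00 over all genes.

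With both 84Q groups set against 15Q (6 libraries against 3), 0 of 10 members were called by either tool, against 3.51% of all genes in edgeR. Pvalb and Slc32a1 on the higher side and Slc6a5 on the lower side had an adjusted p under 0.1, against 9.75% of all genes, and 5 of 10 had an unadjusted p under 0.05, against 22.6% of all genes. Separation in CPM held for Pvalb (higher) and Lypd6 (lower), against 12.3% of all genes (5.96% on the higher side). Without the 3 choroid-rich libraries, which leaves 1 control library assumed to vary like the others, no member had an adjusted p under 0.1 in any of the 4 comparisons. The log2 fold changes over both groups were then 0.29 for Pvalb, 0.26 for Slc32a1 and -0.35 for Slc6a5, and that of Tfap2b in 84Q was -0.27.

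**Figure D2:**
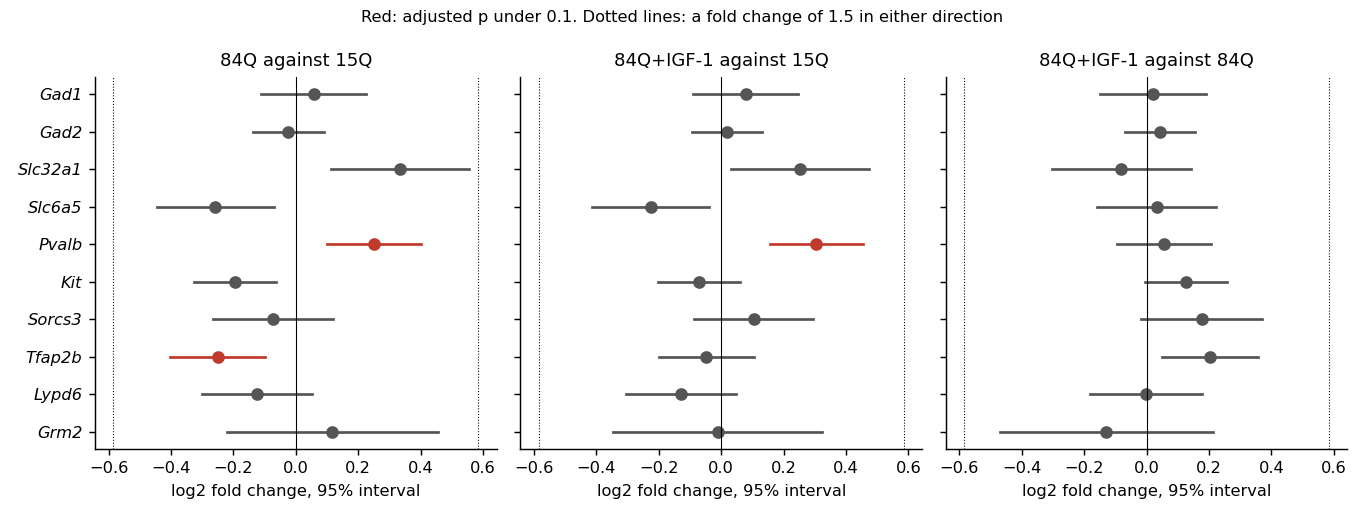
Log2 fold change (horizontal axis) of each gene in 3 comparisons, with its 95% interval from the edgeR quasi-likelihood fit to 9 libraries. Points in red have an adjusted p under 0.1 (Pvalb and Tfap2b in 84Q against 15Q, Pvalb in 84Q+IGF-1 against 15Q), and no interval reaches the dotted lines of a 1.5-fold change.

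The enzymes of GABA synthesis varied least over the 9 libraries, with coefficients of variation of 6.57% (Gad1) and 2.75% (Gad2). Gad1 (ENSMUSG00000070880.10, chr2:70553072-70602014, plus strand), the decarboxylase GAD67 that makes most GABA for general use in the neuron, was measured at 478, 439 and 402 CPM in the 15Q libraries, 416, 465 and 492 CPM in the 84Q libraries and 458, 455 and 479 CPM in the 84Q+IGF-1 libraries. The groups overlapped throughout, with the lowest value in 15Q replicate 3 and the highest in 84Q replicate 3. Its log2 fold change was 0.06 (SE 0.08, adjusted p = 0.732) in 84Q against 15Q and 0.08 in 84Q+IGF-1 against 15Q (adjusted p = 0.636).

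Gad2 (ENSMUSG00000026787.3, chr2:22622205-22693874, plus strand) encodes GAD65, the form enriched at nerve terminals. It was measured at 200.2, 195 and 186 CPM in the 15Q libraries, 191, 191 and 189 CPM in the 84Q libraries and 189, 200.3 and 199 CPM in the 84Q+IGF-1 libraries. The highest library exceeded the lowest by a factor of 1.08, and the groups overlapped. The fold change was 0.984 (95% interval 0.910 to 1.06) in 84Q against 15Q and 1.01 (95% interval 0.937 to 1.09) in 84Q+IGF-1 against 15Q. The ratio of Gad1 to Gad2 in TPM was 1.74 ± 0.0874, 1.85 ± 0.165 and 1.82 ± 0.0621 (SD, n = 3) in 15Q, 84Q and then 84Q+IGF-1 mice, with overlapping ranges.

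Mean levels of the transporters in the 84Q groups lay on opposite sides of the control mean, and some of the groups overlapped. Slc32a1 (ENSMUSG00000037771.11, chr2:158610767-158615748, plus strand), the vesicular transporter of GABA and glycine, was measured at 86.5, 80.3 and 68.3 CPM in the 15Q libraries, 86.3, 98.7 and 111 CPM in the 84Q libraries and 100.3, 92.8 and 86.8 CPM in the 84Q+IGF-1 libraries. The 84Q+IGF-1 libraries all lay above the control libraries, while 84Q replicate 1 lay just below the highest control library. Fold changes were 1.26 (95% interval 1.08 to 1.47) in 84Q and 1.19 (95% interval 1.02 to 1.39) in 84Q+IGF-1, with adjusted p = 0.113 and 0.222. Over both 84Q groups the log2 fold change was 0.29 (SE 0.09, adjusted p = 0.0820). Leaving out 15Q replicate 2, 15Q replicate 3, 84Q replicate 3, 84Q+IGF-1 replicate 1 or 84Q+IGF-1 replicate 2 raised that adjusted p above 0.1, to between 0.102 and 0.340. With offsets for exon length and GC content together, which were added after the data were seen, the log2 fold change of Slc32a1 went from 0.33 to 0.17 in 84Q, from 0.25 to 0.12 in 84Q+IGF-1 and from 0.29 to 0.14 (adjusted p = 0.113) over both groups.

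Slc6a5 (ENSMUSG00000039728.15, chr7:49910146-49963856, plus strand) encodes the glycine transporter GlyT2, which defines glycinergic neurons. It was measured at 51.1, 55.6 and 46.0 CPM in the 15Q libraries, 44.8, 41.5 and 41.3 CPM in the 84Q libraries and 47.0, 39.0 and 44.6 CPM in the 84Q+IGF-1 libraries. All 84Q libraries lay below all control libraries, and 84Q+IGF-1 replicate 1 overlapped the lowest control library. The log2 fold change was -0.26 (SE 0.09, adjusted p = 0.141) in 84Q, -0.23 (SE 0.09, adjusted p = 0.203) in 84Q+IGF-1 and -0.24 (SE 0.07, adjusted p = 0.0850) over both groups. That last adjusted p rose above 0.1 without any 1 of the control libraries, 84Q replicate 2, 84Q replicate 3 or 84Q+IGF-1 replicate 2, to between 0.111 and 0.332.

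Golgi cells release both transmitters from vesicles loaded by Slc32a1, so the ratio of Slc6a5 to Slc32a1 in TPM is given as a description, chosen with the values of both genes known. It was 0.229, 0.269 and 0.262 in the 15Q libraries, 0.202, 0.163 and 0.144 in the 84Q libraries and 0.182, 0.163 and 0.200 in the 84Q+IGF-1 libraries. All 6 libraries of 84Q mice lay below the 3 control libraries, and the share of other gene pairs separated in this way was not computed. The ratio of Slc6a5 to Gad2 overlapped, at 0.203 in 84Q+IGF-1 replicate 1 and 0.202 in 15Q replicate 3. Slc32a1 has 2797 exon bases and a GC content of 61.9%, and Slc6a5 has 7203 bases and 48.2%. No offset for length or GC content was applied to these ratios. Slc6a5 is also made by glycinergic neurons of the cerebellar nuclei and brainstem. The 17 markers of those regions summed to 201 to 230.1 CPM in 15Q, 207 to 262 CPM in 84Q and 175 to 227 CPM in 84Q+IGF-1 libraries, and 0 of the 4 tested were called in any comparison by edgeR. Nefh, a neurofilament subunit of large projection neurons, was the most abundant of them and had a log2 fold change of 0.16 (SE 0.09, adjusted p = 0.358) in 84Q against 15Q. Without Nefh the sum holds chiefly Slc17a6, the vesicular glutamate transporter of excitatory neurons of those regions, and Spp1, osteopontin. Slc17a6 stood at 0.729 CPM in 84Q+IGF-1 replicate 1 and at 12.5 to 26.8 CPM in the other 8 libraries, and Spp1 was likewise lowest in that library, at 12.7 CPM. Their log2 fold changes were -0.01 and -0.07 in 84Q and -0.79 and -0.39 in 84Q+IGF-1 against 15Q, none past the test. Without 84Q+IGF-1 replicate 1 the log2 fold change of Slc6a5 over both groups was -0.27 (adjusted p = 0.0754). The part of these markers in the level of Slc6a5 was not tested.

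Pvalb (ENSMUSG00000005716.16, chr15:78191114-78206400, minus strand), parvalbumin, gave the smallest p of all members in each comparison with 15Q. Its level was 183, 183 and 178 CPM in the 15Q libraries, 210.3, 201 and 235 CPM in the 84Q libraries and 240.0, 211 and 220.1 CPM in the 84Q+IGF-1 libraries. The 3 control libraries lay within a narrow range, and each of the 6 libraries of 84Q mice exceeded all of them. The fold change was 1.19 (95% interval 1.07 to 1.32) in 84Q against 15Q, 1.24 (95% interval 1.11 to 1.37) in 84Q+IGF-1 against 15Q and 1.21 (95% interval 1.11 to 1.33) over both 84Q groups. Adjusted p-values were 0.0876, 0.0484 and 0.0284. IGF-1 and 84Q libraries overlapped, with a log2 difference of 0.05 (SE 0.07, adjusted p = 0.978). In 84Q, the adjusted p stayed under 0.1 in 3 of 9 fits that left out 1 library, and rose above it, to between 0.101 and 0.269, without 15Q replicate 1, 2 or 3, 84Q replicate 1 or 3, or 84Q+IGF-1 replicate 3. In 84Q+IGF-1 it held in 6 of 9, and rose to between 0.143 and 0.176 without 15Q replicate 2 or 3 or 84Q+IGF-1 replicate 1. Over both groups it held in 7 of 9 and rose to 0.108 without 15Q replicate 2 and 0.142 without 15Q replicate 3. With the length offset alone the log2 fold change of Pvalb in 84Q went from 0.25 to 0.09 (adjusted p = 0.353). With offsets for length and GC content together it was 0.08 (adjusted p = 0.415) in 84Q, 0.15 (adjusted p = 0.108) in 84Q+IGF-1 and 0.11 (adjusted p = 0.121) over both groups, none of which passed.

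Parvalbumin is also made by Purkinje cells and by fast skeletal muscle fibres, so markers of both were read beside it. The 10 muscle genes summed to 17.4 to 26.5 CPM in the 15Q libraries and to 4.08 to 5.69 CPM in the other 6, and 8 of the 9 tested were called lower in 84Q, Acta1, Myh4 and Atp2a1 among them. In 15Q libraries the most abundant were Myh4 and Acta1, with means of 4.64 and 4.62 CPM, and Actn3, the tested gene that was not called (adjusted p = 0.231), had a mean of 3.05 CPM. Purkinje cell markers had a median log2 fold change of 0.11 in 84Q against 15Q and 0 of 10 called by edgeR. At any fold, Slc1a6, the glutamate transporter of Purkinje cells, at 0.34 (SE 0.08, adjusted p = 0.0643) and Pcp2, at 0.34 (SE 0.10, adjusted p = 0.0936), had adjusted p under 0.1, while Itpr1, the most abundant, had an adjusted p of 0.467. Over both 84Q groups 8 of the 10 had a positive log2 fold change, with a median of 0.11, and 3 had an adjusted p under 0.1 on the higher side, namely Slc1a6 (0.29, adjusted p = 0.0486), Pcp2 (0.33, adjusted p = 0.0502) and Gng13, a G protein gamma subunit (0.33, adjusted p = 0.0617). In 84Q+IGF-1 against 15Q the median was 0.12, and 0 of 10 had an adjusted p under 0.1. Purkinje cells also make Gad1, Gad2 and Slc32a1, and the part of these markers in the levels of those genes and of Pvalb was not tested.

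Kit (ENSMUSG00000005672.12, chr5:75574916-75656722, plus strand), the receptor tyrosine kinase of basket and stellate cells, was measured at 261, 252 and 243 CPM in the 15Q libraries, 205, 232 and 223 CPM in the 84Q libraries and 233, 242 and 246 CPM in the 84Q+IGF-1 libraries. All 84Q libraries lay below all control libraries and below all 84Q+IGF-1 libraries, whereas 84Q+IGF-1 overlapped the controls. The log2 fold change was -0.20 (SE 0.06, adjusted p = 0.116) in 84Q against 15Q, -0.07 (SE 0.06, adjusted p = 0.577) in 84Q+IGF-1 against 15Q and 0.13 (SE 0.06, adjusted p = 0.969) in 84Q+IGF-1 against 84Q. None of these passed. Mast cells and melanocytes also make Kit, and the 9 of their 10 listed markers with a row in the table summed to at most 3.07 CPM in any library. Of these, 0 of the 3 tested were called in any comparison by edgeR. The part of these cells in the level of Kit was not tested.

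Tfap2b (ENSMUSG00000025927.13, chr1:19208914-19238576, plus strand), AP-2 beta, followed a similar course. It was measured at 90.9, 85.0 and 75.4 CPM in the 15Q libraries, 66.3, 71.0 and 73.9 CPM in the 84Q libraries and 81.7, 77.7 and 83.5 CPM in the 84Q+IGF-1 libraries. Every 84Q library lay below every control and every 84Q+IGF-1 library, and the last overlapped the controls. In 84Q against 15Q the log2 fold change was -0.25 (SE 0.07, adjusted p = 0.0898), a fold change of 0.841 (95% interval 0.756 to 0.934). In 84Q+IGF-1 it was -0.05 (SE 0.07, adjusted p = 0.759) against 15Q and 0.20 (SE 0.07, adjusted p = 0.969) against 84Q, where the unadjusted edgeR p was 0.0140. The adjusted p of 84Q against 15Q stayed under 0.1 without 15Q replicate 3 or without 84Q+IGF-1 replicate 1, and was between 0.106 and 0.272 without any other single library. It was 0.123 with the GC offset alone, and also with length and GC offsets together. Epidermis and kidney, which also make AP-2 beta, were read through 6 genes that summed to 12.4 to 21.1 CPM in 15Q and 4.70 to 6.44 CPM in the other libraries. The 3 of these tested, the keratin genes Krt5, Krt10 and Krt14, were called lower in 84Q and in 84Q+IGF-1. Their part in the level of Tfap2b was not tested.

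Sorcs3 (ENSMUSG00000063434.6, chr19:48206025-48805505, plus strand), a sorting receptor of the VPS10 family and a marker of molecular layer interneurons, was measured at 26.7, 23.6 and 25.3 CPM in the 15Q libraries, 21.6, 25.5 and 24.7 CPM in the 84Q libraries and 25.3, 28.7 and 27.0 CPM in the 84Q+IGF-1 libraries. The groups overlapped, with the lowest value in 84Q replicate 1 and the highest in 84Q+IGF-1 replicate 2. Its log2 fold change was -0.07 (SE 0.09, adjusted p = 0.693) in 84Q against 15Q, 0.10 (SE 0.09, adjusted p = 0.568) in 84Q+IGF-1 against 15Q and 0.18 (SE 0.09, adjusted p = 0.969) in 84Q+IGF-1 against 84Q.

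Lypd6 (ENSMUSG00000050447.15, chr2:50066429-50193569, plus strand), a membrane-anchored protein that binds nicotinic acetylcholine receptors, was measured at 28.9, 28.4 and 28.2 CPM in the 15Q libraries, 25.7, 27.4 and 25.3 CPM in the 84Q libraries and 27.1, 27.9 and 23.4 CPM in the 84Q+IGF-1 libraries. The control libraries were almost identical, and each of the 6 libraries of 84Q mice lay below them. The test was not passed, with a log2 fold change of -0.12 (SE 0.08, adjusted p = 0.428) in 84Q and -0.13 (SE 0.08, adjusted p = 0.433) in 84Q+IGF-1.

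Grm2 (ENSMUSG00000023192.12, chr9:106643095-106656082, minus strand), the metabotropic glutamate receptor mGlu2 of Golgi cells, had the largest coefficient of variation of the members, 15.5%. It was measured at 26.1, 23.1 and 21.6 CPM in the 15Q libraries, 21.6, 24.9 and 30.6 CPM in the 84Q libraries and 29.3, 20.9 and 20.1 CPM in the 84Q+IGF-1 libraries. The highest library exceeded the lowest by a factor of 1.52, and the groups overlapped. The fold change was 1.08 (95% interval 0.859 to 1.37) in 84Q and 0.992 (95% interval 0.786 to 1.25) in 84Q+IGF-1 against 15Q, the widest intervals of the 10 genes. Unipolar brush cells also make Grm2. Their 4 markers summed to 364 to 424 CPM in 15Q, 423 to 460 CPM in 84Q and 423 to 533 CPM in 84Q+IGF-1 libraries, and 0 of 4 were called in any comparison by edgeR. The most abundant was Calb2, calretinin, with a log2 fold change of 0.24 (SE 0.13, adjusted p = 0.330) in 84Q against 15Q.

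**Figure D3:**
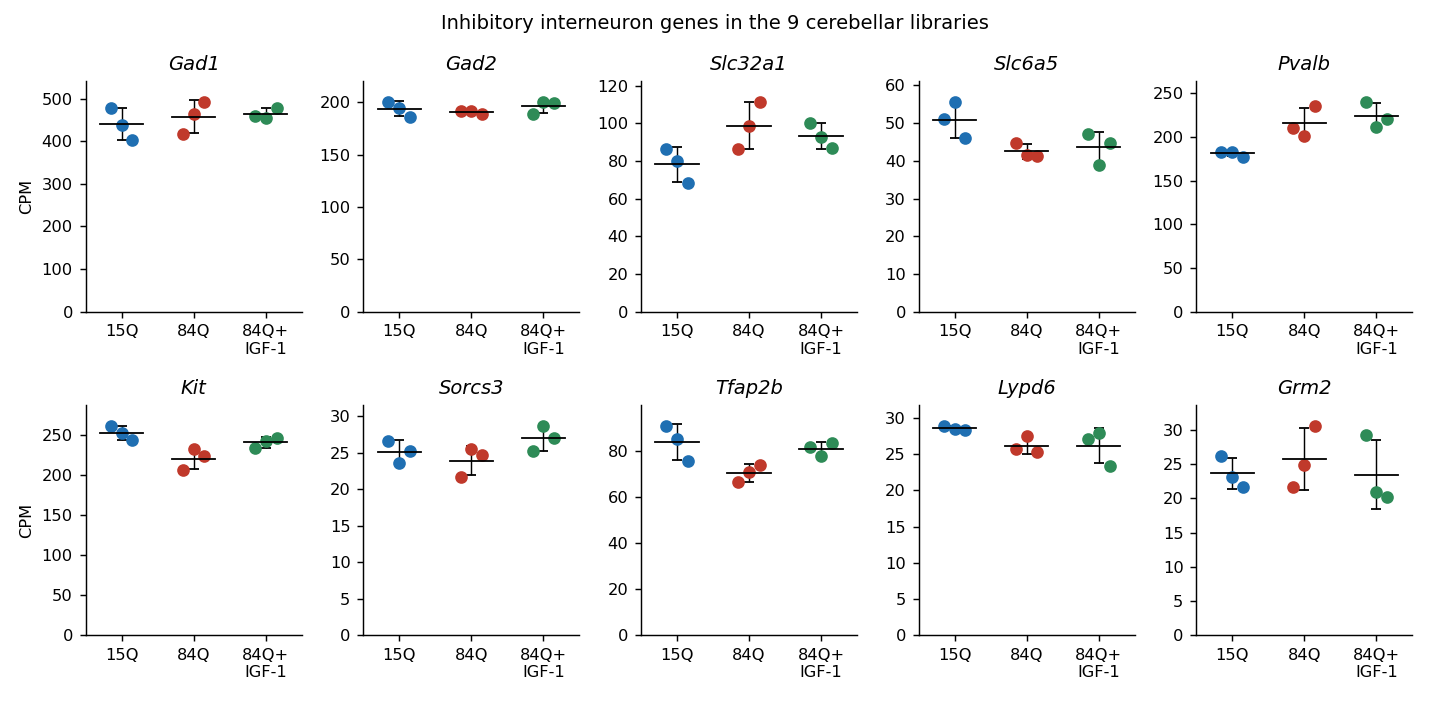
Level of each gene in CPM (vertical axes, each from 0) in the 3 libraries of each group, with the group mean (bar) and SD (whiskers). Pvalb lies higher in all 6 libraries of 84Q mice than in the controls, Kit and Tfap2b are lowest in the 84Q group, and Gad2 is level.

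Across libraries, the members did not share 1 pattern. As a measure of likeness, log2 CPM values were scaled to mean 0 and SD 1 over the 9 libraries, and the root mean square difference of these z scores was taken between genes, where 0 means the same pattern. The members most alike were Kit and Tfap2b (0.486), then Slc32a1 and Pvalb (0.640), then Gad1 and Slc32a1 (0.702). Least alike were Pvalb and Lypd6 (1.82). Among all genes tested, those closest to Gad1 were Id4 (0.215), Mgat3 (0.277) and Syn2 (0.292). Closest to Slc6a5 were Gm21596 (0.268), Gm10602 (0.336) and Thap6 (0.346), and closest to Kit were 1700030K09Rik (0.304), Akt2-ps (0.341) and Gm9247 (0.365). With 9 libraries and 19353 genes, such nearest genes describe these libraries only.

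Differences between groups varied with exon length and with GC content among genes with a mean log2 CPM over 4 (8923 of the 19353 tested). These genes were split by exon length into 5 classes of 1782 to 1786 genes. The class with the shortest exons (median 2351 bases) had a median log2 fold change of 0.13 in 84Q against 15Q, and the class with the longest (median 11320.5 bases) had -0.09. In 84Q+IGF-1 against 15Q the same classes stood at 0.10 and -0.05. Split by GC content in the same way, the class with the lowest GC (median 41.3%) had -0.07 in 84Q and -0.04 in 84Q+IGF-1, and the class with the highest (median 57.8%) had 0.10 and 0.09. Slc32a1 and Grm2 belonged to the class with the highest GC. Pvalb, with 1041 bases the shortest member, and Slc32a1, with 2797 bases, belonged to the shortest class, and Kit, with 8911 bases, to the longest. Slc6a5 (7203 bases) and Tfap2b (6338 bases) belonged to class 4 of 5. With an offset for length in the edgeR fit, the log2 fold change of Pvalb was 0.09 (adjusted p = 0.353) in 84Q, 0.16 (adjusted p = 0.0992) in 84Q+IGF-1 and 0.12 (adjusted p = 0.102) over both groups. That of Slc32a1 was 0.20 (adjusted p = 0.152) over both groups, and that of Kit -0.15 (adjusted p = 0.211) in 84Q. Tfap2b in 84Q, at -0.25 (adjusted p = 0.0813), and Slc6a5 over both groups, at -0.23 (adjusted p = 0.0980), kept an adjusted p under 0.1 with the length offset. With offsets for length and GC content together, Tfap2b in 84Q was -0.23 (adjusted p = 0.123), which did not pass, and Slc6a5 over both groups was -0.23 (adjusted p = 0.0962). The offset was added after the data were seen.

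**Figure D4:**
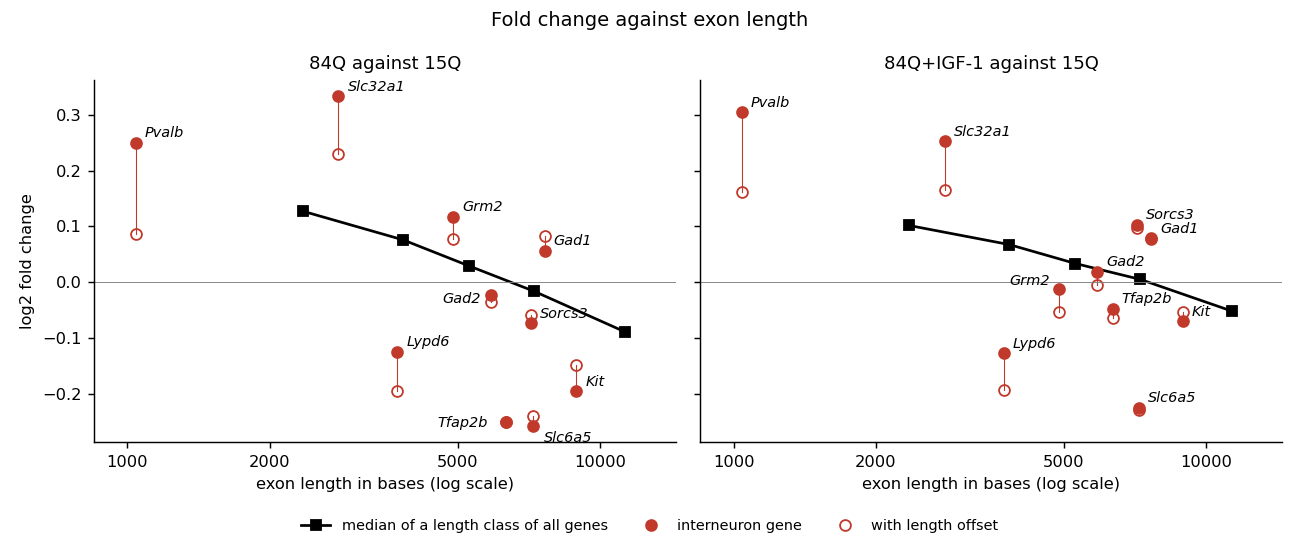
Log2 fold change (vertical axis) against exon length in bases (horizontal axis, log scale) in 2 comparisons with 15Q. Black squares join the medians of 5 length classes of all genes with a mean log2 CPM over 4, filled circles are the 10 members, and open circles the same members with a length offset: Pvalb in 84Q moves from 0.25 to 0.09, and Tfap2b is at -0.25 with and without it (with a GC offset added, -0.23 and an adjusted p of 0.123).

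Of 15 further genes of cerebellar interneurons, 0 were called in any comparison by edgeR, and the median log2 fold change was -0.01 in 84Q against 15Q and -0.06 in 84Q+IGF-1 against 15Q. Lgi2, the most abundant, lay at 144 ± 11.3 CPM in 15Q and 129 ± 6.65 CPM in 84Q (SD, n = 3), with an adjusted p of 0.275. Chrm2, a muscarinic acetylcholine receptor, had the smallest p in 84Q, with a log2 fold change of -0.40 (SE 0.13, adjusted p = 0.122), and over both 84Q groups it was the 1 gene of the 15 with an adjusted p under 0.1 (-0.33, SE 0.11, adjusted p = 0.0937).

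The transport, turnover and reception of GABA and glycine were covered by 19 further genes, of which 0 were called in any comparison by edgeR. Their median log2 fold change was -0.01 in 84Q against 15Q, -0.03 in 84Q+IGF-1 against 15Q and 0.02 in 84Q+IGF-1 against 84Q. The most abundant was Glul, glutamine synthetase of astrocytes, at 931 ± 55.9 CPM in 15Q and 958 ± 51.4 CPM in 84Q (SD, n = 3). Slc6a9, the glial glycine transporter GlyT1, had the smallest p in 84Q, with a log2 fold change of -0.17 (SE 0.06, adjusted p = 0.177). Over both 84Q groups Slc6a9 was the 1 gene of the 19 with an adjusted p under 0.1 (-0.18, SE 0.06, adjusted p = 0.0889), below the fold threshold as Slc6a5 was.

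Genes that overlap the members in the annotation had at most 15 counts in a library. The antisense gene of Gad1, Gad1os, had 3 to 15 counts in a library, that of Slc32a1 (Gm14205) had 0 to 4, and that of Grm2 (Gm28111) had 0 to 6. The strand setting of the counting is not given in the sources used here, so reads of a member and of its antisense gene may not be separated. Of 4 markers of the pancreatic islet, which also makes Gad2, the 2 with a row in the table summed to at most 0.256 CPM in any library, and neither was abundant enough to be tested.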

How the data were processed

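RNA of 9 mouse cerebella was sequenced as strand-specific paired-end libraries. Per the labels and methods, the authors trimmed reads with Trimmomatic 0.36, aligned them with HISAT2 2.2.0 to GRCm38.p6 and counted them with featureCounts. The deposited values are raw counts per gene, and the annotation and strand setting are not given in the sources used here. Groups and replicate numbers came from the labels. CPM of genes and gene sets were computed from library totals multiplied by TMM factors, and the floor of 3 counts from unscaled totals. TPM used the union of exons in GENCODE vM21, in which 37681 of 37816 genes had a position. Tests used edgeR 4.0.16 in R 4.3.3 (TMM, filterByExpr, quasi-likelihood, 1 fit to 9 libraries, two-sided), with Benjamini-Hochberg adjustment over 19353 genes, and were tested on simulated data. DESeq2 1.42.0, other normalization, filters, thresholds, a replicate block, an Xist covariate and omitted libraries were alternatives. Offsets for length and GC and the fit without choroid-rich libraries were added after seeing the data.

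The members and all marker lists were chosen with earlier results of these data known. All members were named. Of each other list, the rule named genes called (at most 3), the gene with the smallest p in 84Q against 15Q and the most abundant, and those on which no result turned are given as counts. Pcp2, Gng13, Slc17a6, Spp1 and the ratios were added after their values were seen. Promoters came from RefSeq (GRCm38.p6), with 10 of 10 members matched. Replicates differed by more than counting noise, with a chi-square per gene of 9.58 to 16.1. Intervals and floors cover what their text states, and a floor covers counting error only.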

Additional observations from a re-analysis of the deposited data

How the results depend on the processing

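No alternative made a member pass both thresholds, and 0 of 10 were called in each comparison, except that dropping the fold threshold gave 2 in 84Q, 1 in 84Q+IGF-1 and 3 in both 84Q groups, each against 15Q. The counts of members with an adjusted p under 0.1 in these comparisons (2, 1 and 3) moved as follows. With DESeq2 the count in 84Q was 4 (Kit and Slc32a1 beside Pvalb and Tfap2b), and with no filter on low counts the counts were 5 in 84Q (Slc6a5 in addition) and 3 in 84Q+IGF-1 (Pvalb, Slc32a1 and Slc6a5). At an adjusted p under 0.05 they were 0 in 84Q and 1 in both groups. In 84Q the count was 1 with an Xist covariate (a sign of the sex of a mouse), with only the groups compared and with the GC offset. Tfap2b over both groups had an adjusted edgeR p of 0.0771 with the Xist covariate, against 0.168 in the main fit. That covariate took all genes called in 84Q from 414 to 294, and the Xist status of each library is not given here. With the length offset the count of members was 1 in 84Q and 1 in both groups, and with length and GC offsets together 0 in 84Q, 0 in 84Q+IGF-1 and 1 in both groups. Without the choroid-rich libraries it was 0 in 84Q, 0 in 84Q+IGF-1 and 0 in both groups. Leaving out 1 library at a time gave 0 to 3 in 84Q, 0 to 1 in 84Q+IGF-1 and 0 to 3 in both groups. The causes were not tested, save that fits without libraries hold fewer samples.

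With the replicate block the counts were 0 in 84Q, 0 in 84Q+IGF-1 and 1 in both groups, and all genes called in 84Q went from 414 to 242. Deviations of the 9 pairs of libraries that share a number correlated at -0.309 to 0.0788, which gave no sign that the numbers pair the mice. Deviations within a group of 3 libraries offset each other, so this check cannot exclude pairing. Not every library correlated best with its own number, and 0 of those 9 pairs but 9 of 18 pairs of other numbers exceeded 0.1.

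All genes called in 84Q against 15Q numbered 414, and 1025 with no filter on low counts, 521 with DESeq2, and 94 without the choroid-rich libraries. All genes called in 84Q+IGF-1 against 15Q numbered 435, and 1284, 588 and 189 in the same fits. All genes called in 84Q+IGF-1 against 84Q numbered 0, and 168, 6 and 9. With 1 library left out at a time they were 184 to 551, 226 to 629 and 0 to 9, lowest in the first without 15Q replicate 2 and in the second without 15Q replicate 3.

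The following log2 fold changes changed sign. Against 15Q over both 84Q groups, Gad2 was 0.0074 with DESeq2, 0.0011 with its size factors, 0.023 with the GC offset and 0.013 with both offsets, Sorcs3 was -0.0068 with the Xist covariate and -0.025 with the GC offset, and Grm2 was -0.042, -0.032 and -0.022 with the Xist covariate, the GC offset and both offsets. Gad2 in 84Q was 0.015 with the GC offset and 0.0032 with both, and in 84Q+IGF-1 it was -0.0051 with the length offset. Against 84Q, Gad1 in 84Q+IGF-1 was -0.0029 with the length offset and -0.0054 with both, and Lypd6 was 0.0027 with the length offset and 0.035 without the choroid-rich libraries. Without those libraries Grm2 in 84Q+IGF-1 against 15Q was 0.024.

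Leaving out 1 library at a time, ranges that crossed 0 in 84Q against 15Q were -0.047 to 0.0055 for Gad2 and -0.021 to 0.23 for Grm2. In 84Q+IGF-1 against 15Q they were -0.0040 to 0.048 for Gad2, -0.11 to 0.019 for Tfap2b and -0.20 to 0.090 for Grm2. In 84Q+IGF-1 against 84Q they were -0.043 to 0.077 for Gad1, -0.17 to 0.013 for Slc32a1, -0.025 to 0.10 for Slc6a5, -0.055 to 0.072 for Lypd6 and -0.32 to 0.012 for Grm2. Over both groups they were -0.025 to 0.027 for Gad2, -0.027 to 0.062 for Sorcs3 and -0.039 to 0.13 for Grm2. Of 111 refitted values of the 6 log2 fold changes of members with an adjusted p under 0.1, 57 stayed under 0.1, 54 did not, and 111 kept their sign. Of 639 refitted values of the other 34, 13 had an adjusted p under 0.1 and 42 turned sign.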
